A study of Homo sapiens with 21 samples.

Results

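The melanocyte lineage genes described here are the 10 listed genes *MITF*, *SOX10*, *KIT*, *EDNRB*, *GPR143*, *PMEL*, *MLANA*, *TYR*, *TYRP1* and *DCT*. They were taken by symbol from the 26475 genes of the count table, with no threshold on their measured values. The list was chosen with earlier results of these data known. All 10 were found, and 7 of them were among the 15062 genes with enough counts to be tested, while *TYR*, *DCT* and *GPR143* were filtered out for low counts. The data are poly-A RNA-seq libraries of SK-MEL-147, an established line of human melanoma cells, in 7 groups of 3 libraries each (21 in all). Cells received the BET bromodomain inhibitor JQ-1, the BRD9 and BRD7 bromodomain inhibitor TP-472, the PRMT5 inhibitor GSK-591, the type I arginine methyltransferase inhibitor MS023, the PAD4 inhibitor GSK-484, or UNC0642, which inhibits the histone H3 lysine methyltransferases EHMT2 and EHMT1. The remaining group was left untreated. No group carried an added gene or deletion according to the labels. Doses, times and any vehicle were not given in the sources used here, so values are set side by side without a dose or a time, and all groups are of 1 line.

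Melanocytes arise from the neural crest, and their identity depends on the transcription factors SOX10 and MITF, with SOX10 acting upstream of *MITF*. MITF in turn binds E-box motifs near the genes that build the melanosome and make melanin, while the receptors KIT and EDNRB carry the signals that melanoblasts need to survive and migrate. Melanoma cells can lose the pigment programme and take up a dedifferentiated state, in which MITF is low and receptors such as AXL are high.

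Library totals of expected counts lay between 20978182 and 78776788 over all groups, and in untreated libraries between 35089548 and 47741066. The 10 genes together took between 0.0372 and 0.0586% of a library, and *SOX10* alone made up 95.3 to 97.3% of that. None of the 21 pairs of replicates was identical, with 0 found. Untreated replicate 1 was the least like its group. Its chi-squared per degree of freedom over genes was 27.6 with untreated replicate 2 and 56.5 with replicate 3. Untreated replicates 2 and 3 gave 8.67, and pairs within treated groups 3.43 to 19.6. Libraries of treated cells differed from untreated ones in their trend on base composition: the slope of log2 CPM on transcript GC content was -0.0379 to 0.126 per 10 percentage points in treated libraries and -0.181 to -0.0975 in untreated ones, with no overlap. Preparation of the untreated libraries and the absence of a compound cannot be told apart in this design. Comparisons of the 10 genes with untreated cells are therefore also given with that trend removed where the call changed, and counts over other gene lists where the count changed. The labels do not say whether replicates were separate cultures, so every p-value covers the spread among these libraries only, which may be technical.

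The line kept a very high level of 1 lineage regulator and almost none of the pigment genes. Mean levels, in TMM-scaled CPM (counts for a gene relative to the library total), were 438 ± 72.1 for *SOX10* and 12.3 ± 2.96 for *MITF* (SD over all 21 libraries, group differences included). *SOX10* stood above 98.2% of the genes tested and *MITF* above 39.7%. Per kilobase of median transcript, the level was 153 CPM for *SOX10*, 3.75 CPM for *MITF*, 0.475 CPM for *EDNRB*, and at most 0.188 CPM for each of the other 7. Only *TYR*, which encodes tyrosinase, the rate-limiting enzyme of melanin synthesis, was silent by the rule of under 10 counts in every library. It had 1 count in each of 4 libraries and 0 in the other 17. *GPR143* reached 12 counts in its highest library, *PMEL* 16, *MLANA* 23, *TYRP1* 28, *DCT* 32 and *KIT* 42, against 173 for *EDNRB*. With a limit of 20 counts, *GPR143* and *PMEL* would also be silent, 3 genes in all. With a limit of 0.25 CPM in every library, which allows for depth, *GPR143* and *TYR* would be, 2 genes in all.

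Set beside the description of the line as dedifferentiated, the pigment genes were near background and many genes of the undifferentiated melanoma state were abundant, with *AXL* at a mean of 1902 CPM and *TGFBI* at 2375 CPM. The 14 genes of that list ranged widely: *EGFR* averaged 57.4 CPM, *NNMT* 47.7 and *PDGFRB* 3.5 CPM, and *ROR2* was silent. *SOX10* was not lost: the description holds for the pigment genes and not for this regulator. *NGFR*, a neural crest receptor, averaged 158 CPM, and *PAX3*, a regulator of *MITF*, 20 CPM. The genes named in this paragraph were chosen with their levels known.

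**Figure D1:**
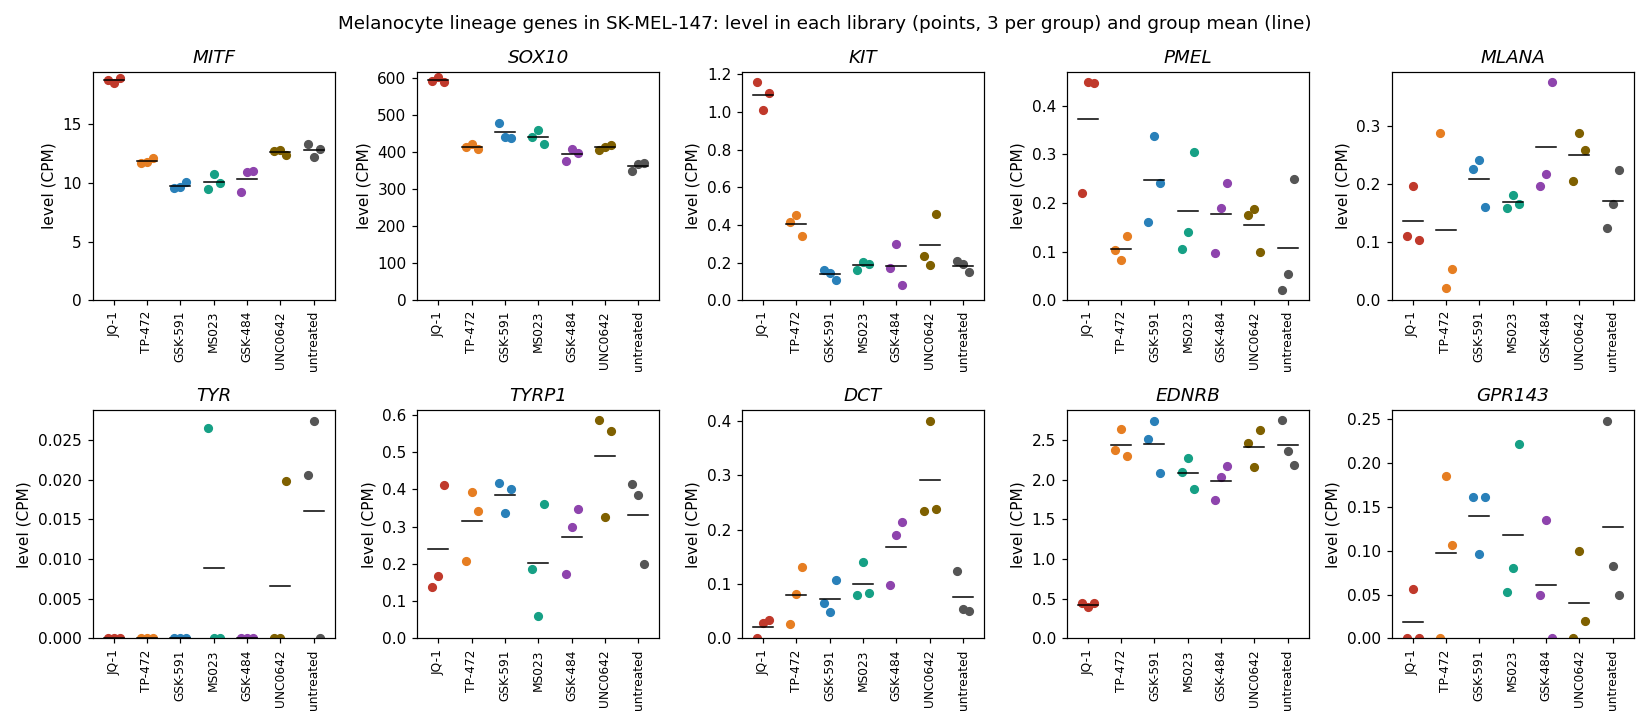
Level of each of the 10 melanocyte lineage genes in every library, in TMM-scaled CPM on linear axes that start at 0 and differ in scale between panels. Points are the 3 libraries of a group and lines their mean. *MITF*, *SOX10* and *KIT* are highest and *EDNRB* lowest in the 3 JQ-1 libraries, with no overlap with any other group, and *DCT* is highest in the 3 UNC0642 libraries.

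The promoters of 4 of the genes with few counts, *TYR*, *TYRP1*, *DCT* and *GPR143*, carry the letters of a known MITF binding motif, and are printed here so that the measured genes can be read beside their regulatory sequence. RefSeq promoter windows of build GRCh38.p14, 250 bases before to 50 after each start, were found for 8 of the 10 genes, as 12 windows. The M-box, the E-box of the tyrosinase family (TCATGTGCT on either strand), lies in 1 window of each of these 4 genes, and in 76 of all 35116 windows (0.216%). It is not in the window of *MLANA*, which also had few counts, nor in the second window of *DCT*. The shorter E-box CATGTG, which is contained in the M-box, was found in 11.1% of windows, and CACGTG in 7.26%. The search motifs were chosen with the identity of these genes known, and a match describes letters only. The 250 bases before the start are given 5′ to 3′ on the gene's strand with the M-box in capitals, from chr11:89177625-89177874 on the plus strand for *TYR*, chr9:12693135-12693384 on the plus strand for *TYRP1*, chr13:94479683-94479932 on the minus strand for *DCT* and chrX:9765848-9766097 on the minus strand for *GPR143*.
TYR promoter: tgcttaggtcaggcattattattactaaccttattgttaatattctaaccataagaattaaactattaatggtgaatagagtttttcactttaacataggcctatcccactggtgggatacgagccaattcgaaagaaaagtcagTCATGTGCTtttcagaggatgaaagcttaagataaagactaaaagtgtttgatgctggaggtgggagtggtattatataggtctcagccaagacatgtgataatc
TYRP1 promoter: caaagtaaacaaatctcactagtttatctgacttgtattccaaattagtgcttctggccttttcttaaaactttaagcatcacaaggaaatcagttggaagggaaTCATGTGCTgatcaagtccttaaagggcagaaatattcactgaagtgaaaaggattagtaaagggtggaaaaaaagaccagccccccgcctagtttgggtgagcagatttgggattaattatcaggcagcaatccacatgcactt
DCT promoter: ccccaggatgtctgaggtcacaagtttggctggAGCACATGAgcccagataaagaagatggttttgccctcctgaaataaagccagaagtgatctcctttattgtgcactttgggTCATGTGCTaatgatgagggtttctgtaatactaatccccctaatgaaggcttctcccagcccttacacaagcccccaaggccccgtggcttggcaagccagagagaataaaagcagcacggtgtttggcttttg
GPR143 promoter: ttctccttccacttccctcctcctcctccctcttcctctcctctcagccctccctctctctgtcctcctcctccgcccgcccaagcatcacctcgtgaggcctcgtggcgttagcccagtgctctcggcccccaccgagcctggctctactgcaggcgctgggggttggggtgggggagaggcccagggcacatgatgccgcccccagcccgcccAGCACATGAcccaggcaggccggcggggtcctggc

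Relative to the start, the M-box lies at -105 to -97 in *TYR* and -145 to -137 in *TYRP1*. *DCT* has it at -135 to -127, and again at -217 to -209 on the other strand, where it reads AGCACATGA. In *GPR143* it lies at -35 to -27, also on the other strand. The M-box windows of the 3 enzyme genes have a low CpG content: observed over expected CpG was 0.202 for *TYR*, 0.176 for *TYRP1* and 0.112 for this *DCT* window, against a median of 0.579 over all windows and 0.952 for *KIT*. The second *DCT* window, at chr13:94549357-94549656 on the minus strand, was rich in CpG at 0.965. *GPR143*, which is as near to background in expression, had 0.549. RefSeq starts can differ from the GENCODE 29 gene limits given below. The *TYRP1* and *GPR143* windows lie inside their GENCODE 29 genes, and the second *DCT* window lies outside its gene.

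*MITF* (chr3:69739435-69968337, plus strand, GENCODE 29, GRCh38) has 3 windows, of which the one nearest the end of the gene, chr3:69936342-69936591 on the plus strand before its start, is the promoter of the melanocyte isoform. It holds a cyclic AMP response element (TGACGTCA, in capitals, at -152 to -145), through which cyclic AMP signalling reaches *MITF*. That motif was found in 1.85% of all windows. Gene-level counts do not separate transcripts from the 3 starts.
MITF promoter: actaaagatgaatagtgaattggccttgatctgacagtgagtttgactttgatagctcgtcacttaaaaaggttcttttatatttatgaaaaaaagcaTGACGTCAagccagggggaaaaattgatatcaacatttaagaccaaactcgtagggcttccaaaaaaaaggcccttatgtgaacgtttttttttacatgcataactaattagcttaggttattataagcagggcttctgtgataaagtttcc

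*MITF*, the master regulator of the lineage, moved in opposite directions with different compounds. It had 18.8, 18.5 and 19 CPM with JQ-1, against 13.3, 12.2 and 12.9 CPM in untreated cells. The lowest JQ-1 library stood above all 18 other libraries. The log2 fold change was 0.55 ± 0.063 (SE, n = 3 each), or 1.46-fold higher, by edgeR's quasi-likelihood test with an adjusted p of 5e-08. Levels were lower with the arginine-directed compounds. *MITF* had 9.56, 9.62 and 10.1 CPM with GSK-591, 9.47, 10.8 and 9.99 CPM with MS023, and 9.24, 10.9 and 11 CPM with GSK-484. All 9 of these libraries were below the lowest untreated one. *MITF* fell by 0.39 ± 0.068 on the log2 scale with GSK-591 (edgeR adjusted p = 0.000216), by 0.34 ± 0.066 with MS023 (adjusted p = 0.000229) and by 0.31 ± 0.066 with GSK-484 (adjusted p = 0.00427). With the GC trend removed it fell by 0.26 with GSK-591 (edgeR adjusted p = 0.0107) and by 0.19 with MS023 (adjusted p = 0.04), while the value of -0.21 with GSK-484 did not pass (adjusted p = 0.102). In TP-472 libraries *MITF* had 11.7, 11.8 and 12.1 CPM, also all below the lowest untreated library. In UNC0642 libraries it had 12.7, 12.8 and 12.4 CPM. Neither difference from untreated cells passed the test, with log2 values of -0.11 (95% interval -0.24 to 0.03) and -0.02 (-0.15 to 0.11) that turned to 0.02 and 0.06 without the GC trend.

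Contrasts between compounds set treated groups against each other and leave out the level of the untreated libraries, which still enter the estimate of the spread and the filter. Of the 15 pairs of treated groups, 10 differed in *MITF*, more than for any other of the 7 genes tested. *MITF* was 0.94 ± 0.068 higher on the log2 scale with JQ-1 than with GSK-591 (edgeR adjusted p = 1.73e-11). It was also 0.28 ± 0.069 higher with TP-472 than with GSK-591 (edgeR adjusted p = 0.014), and lower with GSK-591, MS023 and GSK-484 than with UNC0642, by -0.37, -0.32 and -0.29 (adjusted p = 0.000843, 0.00112 and 0.0209). Ordered by mean level, the groups ran from JQ-1 at 18.8 CPM through untreated at 12.8, UNC0642 at 12.6, TP-472 at 11.9, GSK-484 at 10.4 and MS023 at 10.1 to GSK-591 at 9.77 CPM. Only the first pair of neighbours in that order differed by the test.

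*SOX10* (chr22:37970686-37987422, minus strand) encodes the neural crest factor that activates *MITF*. It had 592, 603 and 589 CPM with JQ-1, against 349, 366 and 371 CPM in untreated cells. No library of another group exceeded 479 CPM, so the JQ-1 group stood apart. The log2 fold change was 0.72 ± 0.041 (SE, n = 3 each), or 1.64-fold higher, with an edgeR adjusted p of 2.05e-13. With the GC trend removed it was 0.48 ± 0.0385 (adjusted p = 1.3e-10). *SOX10* transcripts have a GC content of 63.3%, against 41.3% for *MITF*.

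The other 5 compounds gave 412, 422 and 408 CPM for *SOX10* with TP-472, 479, 441 and 437 with GSK-591, and 440, 458 and 420 with MS023. With GSK-484 it had 374, 409 and 397 CPM, and with UNC0642 406, 412 and 419 CPM. Every treated library was above the highest untreated one. Each of the 5 was called higher than untreated by edgeR, at log2 values of 0.19, 0.32, 0.28, 0.12 and 0.19 in that order, with adjusted p between 1.22e-05 and 0.0401. None of these 5 calls held with the GC trend removed: 3 turned negative (-0.04 with TP-472, -0.05 with MS023 and -0.08 with GSK-484), and GSK-591 and UNC0642 gave 0.08 and 0.03. The GSK-484 call was also lost without untreated replicate 1 or 2, or without GSK-484 replicate 2 or 3, at 0.09 to 0.13 (edgeR adjusted p between 0.0566 and 0.177). Between treated groups, *SOX10* was higher with JQ-1 than with each of the others, and higher with GSK-591 and MS023 than with GSK-484 by 0.20 and 0.16 (edgeR adjusted p = 0.0099 and 0.0128). It was also 0.13 higher with GSK-591 than with UNC0642 (adjusted p = 0.0217). By mean level, *SOX10* was highest with JQ-1 at 595 CPM, followed by GSK-591 at 452, MS023 at 439, TP-472 at 414, UNC0642 at 412, GSK-484 at 393 and untreated cells at 362 CPM. In that order, JQ-1 differed from GSK-591 and GSK-484 from untreated cells, and the other 4 neighbours did not pass the test. *SOX10* lies wholly within *POLR2F* on the opposite strand, and strand use in counting is not given in the sources used here. *POLR2F* averaged 54 CPM with JQ-1 and 51.6 CPM in untreated cells.

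*KIT* (chr4:54657918-54740715, plus strand) encodes the receptor for stem cell factor, which melanoblasts need. It had few counts in every group, most of them with JQ-1. It had 42, 36 and 32 counts with JQ-1, against 10, 7 and 6 in untreated cells. In CPM these were 1.16, 1.01 and 1.1 with JQ-1 and 0.206, 0.192 and 0.15 in untreated cells. The highest library of any other group, at 0.456 CPM, was below every JQ-1 library. The log2 fold change was 2.55 ± 0.35 (SE, n = 3 each), or 5.84-fold higher, with an edgeR adjusted p of 8.32e-07.

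With TP-472, the other bromodomain compound, *KIT* had 16, 22 and 13 counts, or 0.417, 0.453 and 0.343 CPM, all above the untreated libraries. The log2 fold change over untreated was 1.14 ± 0.39 (SE, n = 3 each; edgeR adjusted p = 0.0285). That call was lost without any 1 of the 3 untreated libraries, or without TP-472 replicate 1 or 2, at values of 1.01 to 1.25 and adjusted p of 0.0547 to 0.101. *KIT* was 1.41 ± 0.31 higher on the log2 scale with JQ-1 than with TP-472 (edgeR adjusted p = 0.000336). It was 1.57 ± 0.44 higher with TP-472 than with GSK-591 (adjusted p = 0.0318), whose libraries had 5, 3 and 4 counts. The UNC0642 libraries had 8, 15 and 23 counts, MS023 6, 10 and 7, and GSK-484 7, 11 and 3. None of these 3 groups or GSK-591 passed the test against untreated cells. By mean level the order was JQ-1 at 1.09 CPM, TP-472 at 0.405, UNC0642 at 0.293, MS023 at 0.185, GSK-484 at 0.183, untreated at 0.183 and GSK-591 at 0.137 CPM, and JQ-1 and TP-472 were the 1 pair of neighbours that differed.

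*EDNRB* (chr13:77895481-77975529, minus strand) encodes the endothelin receptor that guides melanoblasts, and it fell with JQ-1 while *KIT* rose. It had 16, 14 and 13 counts with JQ-1, against 134, 86 and 88 in untreated cells. In CPM these were 0.441, 0.392 and 0.447 with JQ-1 and 2.76, 2.36 and 2.19 in untreated cells. All 18 other libraries were at 1.74 CPM or more, so the groups did not overlap. *EDNRB* fell by 2.52 ± 0.19 on the log2 scale (SE, n = 3 each), or 5.72-fold, with an edgeR adjusted p of 3.38e-11. The means with TP-472, GSK-591, MS023, GSK-484 and UNC0642 were 2.44, 2.45, 2.08, 1.98 and 2.42 CPM, against 2.44 CPM in untreated cells. None of these 5 differences passed, and the widest, -0.31 with GSK-484, had a 95% interval of -0.61 to -0.00 on the log2 scale and an edgeR adjusted p of 0.15. Ordered by level, only GSK-484 and JQ-1, the last 2 groups, differed as neighbours (edgeR adjusted p = 5.67e-10). The antisense transcript *RNF219-AS1* overlaps 55841 bases of the gene and averaged 0.15 CPM with JQ-1 and 0.187 CPM in untreated cells.

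*GPR143* (chrX:9725346-9786297, minus strand) encodes a receptor of the melanosome membrane that is mutated in ocular albinism. It had 0, 2 and 0 counts with JQ-1, against 12, 3 and 2 in untreated cells. The remaining 5 groups spanned 0 to 9 counts and overlapped with untreated cells. Pooled over 3 libraries, its level was 0.0198 CPM with JQ-1 (95% exact Poisson interval 0.00239 to 0.0714, for counting error only) and 0.136 CPM in untreated cells (0.0792 to 0.218). It was not tested with the filter. Without the filter, the log2 value was -2.57 ± 1.2 (edgeR adjusted p = 0.0722). *GPR143* overlaps *TBL1X* on the opposite strand over 15692 bases. *TBL1X* averaged 51.8 CPM with JQ-1 and 63.6 CPM in untreated cells, far above *GPR143*. Whether its reads entered the few *GPR143* counts was not tested.

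**Figure D2:**
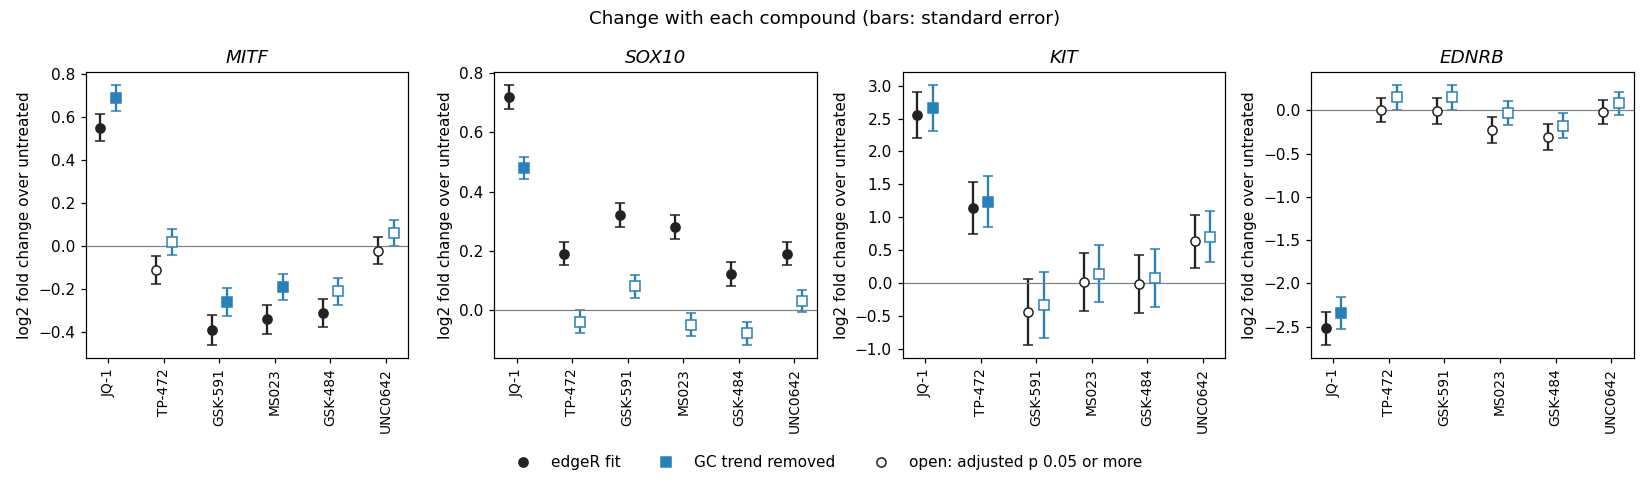
Log2 fold change of *MITF*, *SOX10*, *KIT* and *EDNRB* with each compound over untreated cells, with bars for the standard error (n = 3 each) and a different scale in each panel. Circles are the edgeR fit and squares the fit with the GC trend of each library removed, and open symbols have an adjusted p of 0.05 or more. *SOX10* stays called only with JQ-1, at 0.48, in the fit without the GC trend, while *MITF* stays lower with GSK-591 and MS023.

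*PMEL* (chr12:55954105-55973317, minus strand) encodes the protein whose fibrils form the melanosome matrix. It had 8, 16 and 13 counts with JQ-1, against 1, 2 and 10 in untreated cells, or 0.22, 0.448 and 0.447 CPM with JQ-1 and 0.0206, 0.0548 and 0.249 CPM in untreated cells. The ranges overlapped, since untreated replicate 3 was above JQ-1 replicate 1. The log2 fold change of 1.78 ± 0.58 passed (SE, n = 3 each; edgeR adjusted p = 0.00842), but without untreated replicate 1 it was 1.23 and did not pass (adjusted p = 0.0615), and without untreated replicate 3 it was 3.26. Leaving out untreated replicate 3 also gave calls for *PMEL* with GSK-591, MS023 and GSK-484, at 2.64, 2.24 and 2.20 (edgeR adjusted p = 0.0108, 0.0235 and 0.0493), where the values with all libraries, 1.16, 0.76 and 0.72, did not pass. *PMEL* was also higher with JQ-1 than with TP-472, at 4, 4 and 5 counts, by 1.78 ± 0.58 (edgeR adjusted p = 0.00854), and higher than with UNC0642 by 1.22 ± 0.52 (adjusted p = 0.0377). It overlaps *CDK2* on the opposite strand over 6016 bases. *CDK2* averaged 61.3 CPM with JQ-1 and 98.8 CPM in untreated cells. Whether *CDK2* reads entered the few *PMEL* counts was not tested.

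*MLANA* (chr9:5890802-5910606, plus strand) encodes the melanosome protein MART-1, a melanoma antigen. It had 4, 7 and 3 counts with JQ-1, 11, 1 and 2 with TP-472, 7, 5 and 6 with GSK-591 and 6, 9 and 6 with MS023. With GSK-484 it had 8, 8 and 14 counts and with UNC0642 7, 23 and 13, against 6, 6 and 9 in untreated cells. The 6 compounds gave no call, and none of the 15 pairs of treated groups differed. The TP-472 value rested on 1 library: it was -0.56 with all 3 (edgeR adjusted p = 0.512), but without replicate 1, which held 11 of its 14 counts, *MLANA* was called lower at -2.18 ± 0.65 (adjusted p = 0.0151), with 1 and 2 counts left. The 95% interval with JQ-1 reached from -1.51 to 0.94 on the log2 scale. *MLANA* overlaps *KIAA2026* on the opposite strand over 19805 bases, its whole length. *KIAA2026* averaged 38.3 CPM with JQ-1 and 37.5 CPM in untreated cells, far above *MLANA*. Whether its reads entered the few *MLANA* counts was not tested.

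*TYRP1* (chr9:12685439-12710290, plus strand) encodes a melanosomal enzyme that acts with tyrosinase. It had 5, 6 and 12 counts with JQ-1, 8, 19 and 13 with TP-472, 13, 7 and 15 with GSK-591 and 7, 3 and 13 with MS023. With GSK-484 it had 7, 11 and 13 counts and with UNC0642 20, 26 and 28, against 20, 14 and 8 in untreated cells. No compound was called against untreated cells, but without MS023 replicate 3 the MS023 value of -0.80 became -1.50 and was called (edgeR adjusted p = 0.0434). Of the 15 pairs, 1 passed: *TYRP1* averaged 0.202 CPM with MS023 and 0.489 CPM with UNC0642, a log2 difference of -1.29 ± 0.47 (SE, n = 3 each; edgeR adjusted p = 0.045) with overlapping ranges. The antisense transcript *LURAP1L-AS1* overlaps 11737 bases of the gene and averaged 0.651 CPM with JQ-1 and 1.32 CPM in untreated cells. Whether its reads entered the *TYRP1* counts was not tested.

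*DCT* (chr13:94436808-94479682, minus strand) encodes dopachrome tautomerase, the third enzyme of the tyrosinase family and an early mark of melanoblasts. Its highest levels were with UNC0642, at 8, 32 and 12 counts, against 6, 2 and 2 in untreated cells. In CPM these were 0.234, 0.4 and 0.238 with UNC0642 and 0.124, 0.0548 and 0.0499 in untreated cells. Every UNC0642 library was above all other libraries, the nearest being a GSK-484 library at 0.214 CPM. The JQ-1 libraries had 0, 1 and 1 counts, the fewest of any group. Pooled levels were 0.316 CPM with UNC0642 (95% exact Poisson interval 0.236 to 0.414, counting error only) and 0.08 CPM in untreated cells (0.0383 to 0.147). The filter on low counts kept *DCT* out of the test. Without the filter its log2 fold change was 1.87 ± 0.615 (SE, n = 3 each; edgeR adjusted p = 0.0418, where 10.4% of all genes were called). *DCT* is singled out here after its values were seen.

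*TYR* (chr11:89177452-89295759, plus strand) had 0 counts in all 12 libraries of JQ-1, TP-472, GSK-591 and GSK-484, and 1 count in 1 of 3 libraries each of MS023 and UNC0642, against 1, 1 and 0 in untreated cells. A count of 0 over the 3 JQ-1 libraries allows a level of up to 0.0297 CPM (3 counts of their total, for counting error only). The pooled level was 0.00809 CPM with MS023 and 0.00608 CPM with UNC0642, from 1 count each, and 0.016 CPM in untreated cells, from 2 counts, so no difference between groups was detectable at this depth.

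**Figure D3:**
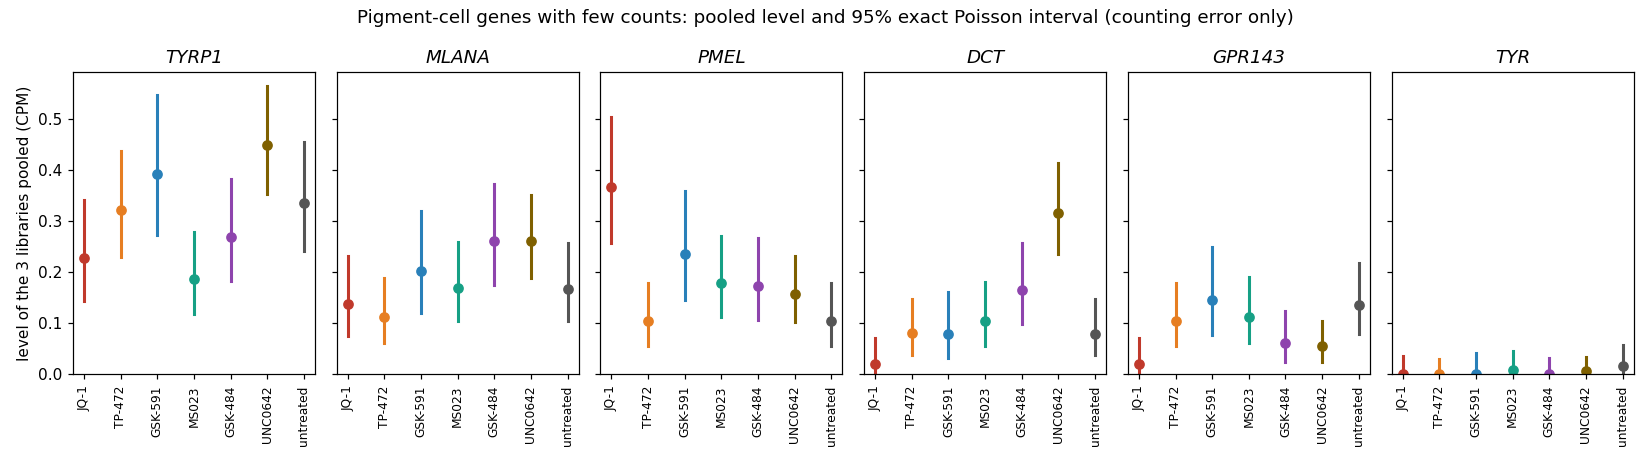
Level of the 6 pigment-cell genes with few counts, pooled over the 3 libraries of each group, in CPM on 1 shared linear axis. Bars are 95% exact Poisson intervals for counting error only. The *DCT* interval with UNC0642 (0.236 to 0.414) lies above that of untreated cells (0.0383 to 0.147), and *TYR* stays at the bottom in all 7 groups.

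Counted by comparison, 4 of the 7 tested genes rose with JQ-1 (*MITF*, *SOX10*, *KIT* and *PMEL*) and 1 fell (*EDNRB*), where 35.7% of all genes tested were called higher and 37.6% lower (73.3% in all). The share of 5 in 7 is near that background. With TP-472, 2 rose (*SOX10* and *KIT*) and 0 fell, beside 17.3% higher and 14.5% lower (31.8%). *SOX10* rose and *MITF* fell with GSK-591 (18.1% higher, 14.8% lower, 32.9% in all), with MS023 (22% higher, 20.6% lower, 42.6% in all) and with GSK-484 (11.4% higher, 7.66% lower, 19.1% in all). With UNC0642, *SOX10* alone rose and 0 fell (8.71% higher, 7.54% lower, 16.3% in all). The median log2 fold change of the 7 genes with JQ-1 was 0.55, against -0.006 over all genes. Total-count scaling moved the median of all genes to -0.149 and left all 5 JQ-1 directions and calls in place. In these bulk samples, fewer cells expressing a gene and less RNA per cell cannot be told apart.

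With the GC trend removed, 5 of the 7 genes were called with JQ-1 (background 73.8%), *KIT* alone with TP-472 (11.9%), and *MITF* alone with GSK-591 (13%) and with MS023 (16.3%). No gene was called with GSK-484 (0.989%) or UNC0642 (3.17%) in that fit, and with those 5 compounds fewer of all genes were called there too. Set against the other treated groups except JQ-1 (the other 5 for JQ-1) in place of untreated cells, the same 5 genes were called with JQ-1 (77.8%), *KIT* with TP-472 (8.6%) and *MITF* and *SOX10* with GSK-591 (7.54%). None was called with MS023 (18.9%) or GSK-484 (0.126%), and *MITF* was called higher with UNC0642 (27.5%), at 0.27 on the log2 scale.

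Over the 7 groups, *MITF*, *SOX10*, *KIT* and *EDNRB* differed by edgeR's F test (adjusted p between 4.52e-12 and 3.73e-07; background 84.5%), and the same 4 differed over the 6 treated groups alone (background 81.8%). *PMEL* missed the threshold over the 7 groups (edgeR adjusted p = 0.0672), as did *MLANA* (0.303) and *TYRP1* (0.178). Each passed over the 7 groups without 1 library: *PMEL* without untreated replicate 3, JQ-1 replicate 1 or MS023 replicate 3 (edgeR adjusted p = 0.00477, 0.0489 and 0.0493), *MLANA* without TP-472 replicate 1 (0.00616) and *TYRP1* without MS023 replicate 3 (0.0474). In direct contrasts, JQ-1 differed in 5 of the 7 genes from TP-472 (background 72.3%) and from UNC0642 (73.1%), and in 4 from GSK-591 (72.1%), MS023 (72.3%) and GSK-484 (71.8%). Without JQ-1, at most 2 of the 7 genes differed in a pair. *MITF* and *KIT* differed between TP-472 and GSK-591 (background 7.32%), *MITF* and *SOX10* between GSK-591 and UNC0642 (21.7%), and *MITF* and *TYRP1* between MS023 and UNC0642 (27.4%). *MITF* alone differed between TP-472 and MS023 (13.5%) and between GSK-484 and UNC0642 (4.57%). *SOX10* alone differed between GSK-591 and GSK-484 (2.65%) and between MS023 and GSK-484 (12.5%). No gene of the 7 differed between TP-472 and GSK-484 (2.06%), TP-472 and UNC0642 (21.8%) or GSK-591 and MS023 (9.89%).

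Among the signalling partners of these receptors, the ligand genes *KITLG* and *EDN1* moved with JQ-1 in the direction of their receptors. Of the 10 listed partners, 7 were tested, 2 rose and 4 fell, and 6 of 7 is near the 73.3% of all genes called with JQ-1. After removal of the GC trend 1 rose and 4 fell, since *GNA11*, a G protein subunit, was no longer called (log2 0.01, edgeR adjusted p = 0.9). *KITLG*, the ligand of KIT, averaged 15.9 ± 1.09 CPM with JQ-1 and 9.48 ± 0.654 CPM in untreated cells (SD, n = 3 each; log2 fold change 0.74, edgeR adjusted p = 5.08e-08), so the ligand and its receptor both rose. On the endothelin side, the ligand *EDN1* fell together with *EDNRB*, to 1.32 ± 0.0488 CPM with JQ-1, against 8.12 ± 0.586 CPM in untreated cells (log2 fold change -2.62, edgeR adjusted p = 1.11e-15). The second endothelin receptor, *EDNRA*, fell by 2.64 on the log2 scale, to 0.84 CPM with JQ-1, against 5.28 CPM in untreated cells. *MC1R*, the melanocortin receptor, did not pass (3.94 CPM with JQ-1 and 3.66 CPM in untreated cells; edgeR adjusted p = 0.459). The *EDN3*, *POMC* and *ASIP* ligand genes were at or near 0, with at most 3 counts in a library.

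Most regulators of *MITF* other than *SOX10* fell with JQ-1, the opposite direction to *MITF* itself. Of 12 listed, 11 were tested, 2 rose and 8 fell, with a median log2 fold change of -0.66 against -0.006 over all genes, of which 35.7% rose and 37.6% fell (73.3% in all). With the GC trend removed 3 rose and 8 fell, *CREB1* being added at 0.16. *FOXD3*, a neural crest repressor of *MITF*, averaged 1.56 ± 0.196 CPM with JQ-1 and 4.09 ± 0.496 CPM in untreated cells (log2 -1.38, edgeR adjusted p = 4.72e-09). *SOX5* fell by 1.37, to 1.98 CPM with JQ-1, against 5.02 CPM in untreated cells. Among activators, *PAX3* and *LEF1* fell by 0.82 and 0.66, while *TFAP2A*, a neural crest and melanocyte factor, rose to 65.7 ± 1.73 CPM with JQ-1, against 30.3 ± 1.13 CPM in untreated cells (log2 1.12, edgeR adjusted p = 1.87e-15). *PAX3* and *LEF1* were chosen after their values were seen. In the related MiT family, *TFEB* fell and *TFE3* did not pass (log2 0.06), although it was called lower at -0.11 with the GC trend removed, and *TFEC* was not tested.

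Listed MITF targets fell more often than they rose with JQ-1, although *MITF* was higher. Of 14 listed, 12 were tested, 3 rose and 8 fell, with a median log2 fold change of -0.73, where 35.7% of all genes rose and 37.6% fell (73.3% in all) with a median of -0.006. *BCL2A1*, an anti-apoptotic gene, fell by 2.20, to 2.03 ± 0.18 CPM with JQ-1, against 9.35 ± 0.753 CPM in untreated cells. *RRAGD*, a GTPase of nutrient signalling, fell by 1.26, to 13 CPM with JQ-1, against 31.1 CPM in untreated cells. *PPARGC1A*, the mitochondrial coactivator PGC1-alpha, rose to 4.69 ± 0.46 CPM with JQ-1, against 1.54 ± 0.253 CPM in untreated cells (log2 1.62, edgeR adjusted p = 1.44e-09). These genes have other regulators, and MITF binding was not measured.

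Genes of the melanosome machinery and its transport divided in direction with JQ-1. Of 28 listed genes, 26 were tested, 5 rose and 8 fell (13 of 26, where 35.7% of all genes were higher and 37.6% lower, 73.3% in all), with a median of -0.06. In the fit without the GC trend, 7 rose and 11 fell. Most were expressed well above the pigment genes, with *CD63* at a mean of 304 CPM, but *GPNMB* at 0.189 and *OCA2* at 0.225 CPM were as low, and 2 of the 28 were silent (*SLC45A2* and *SLC24A4*); these examples were chosen with their levels known. *RAB27A* and *MLPH*, which tether melanosomes to actin, both fell: *RAB27A* by 1.92, to 14.8 ± 1.16 CPM with JQ-1, against 55.6 ± 3.2 CPM in untreated cells, and *MLPH* by 1.76, to 15.2 ± 0.595 CPM with JQ-1, against 51.3 ± 1.01 CPM in untreated cells (edgeR adjusted p = 6.07e-18 and 2.59e-20). *MYO5A*, the motor of the same complex, rose by 0.56, to 95.7 CPM with JQ-1, against 64.6 CPM in untreated cells, and is named after its value was seen. *BLOC1S3*, of the organelle biogenesis complex BLOC-1, rose by 0.99, to 15.7 CPM with JQ-1, against 7.97 CPM in untreated cells.

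Genes that mark the SOX10-positive glial lineage mostly fell with JQ-1 while *SOX10* rose. Of 10 listed, 7 were tested, 1 rose and 6 fell, where 35.7% of all genes rose and 37.6% fell (73.3% in all). Some falls were of genes near background. *CDH19* averaged 0.0184 CPM with JQ-1 and 0.338 CPM in untreated cells, and *SOX2* 0.0992 and 0.3 CPM. The summed level of the list was higher with JQ-1, at 317 to 322 CPM against 147 to 162 CPM in untreated cells, most of it *NGFR*. *MIA*, a secreted melanoma protein, fell by 1.15, to 11.6 ± 0.838 CPM with JQ-1, against 25.8 ± 2.82 CPM in untreated cells (SD, n = 3 each; edgeR adjusted p = 3.08e-09). *NGFR* rose to 303 ± 3.58 CPM with JQ-1, against 116 ± 4.96 CPM in untreated cells (log2 1.38, edgeR adjusted p = 1.82e-18). The undifferentiated-state genes divided, with 5 of 13 tested higher and 7 lower (4 and 7 with the GC trend removed). The falls included *NNMT* by 2.77, *PDGFRB* by 2.39 and *WNT5A* by 2.05 on the log2 scale, whereas *AXL* was 0.15 higher (2050 CPM with JQ-1 and 1847 CPM in untreated cells), a call that was lost at -0.00 with the GC trend removed (edgeR adjusted p = 0.918).

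**Figure D4:**
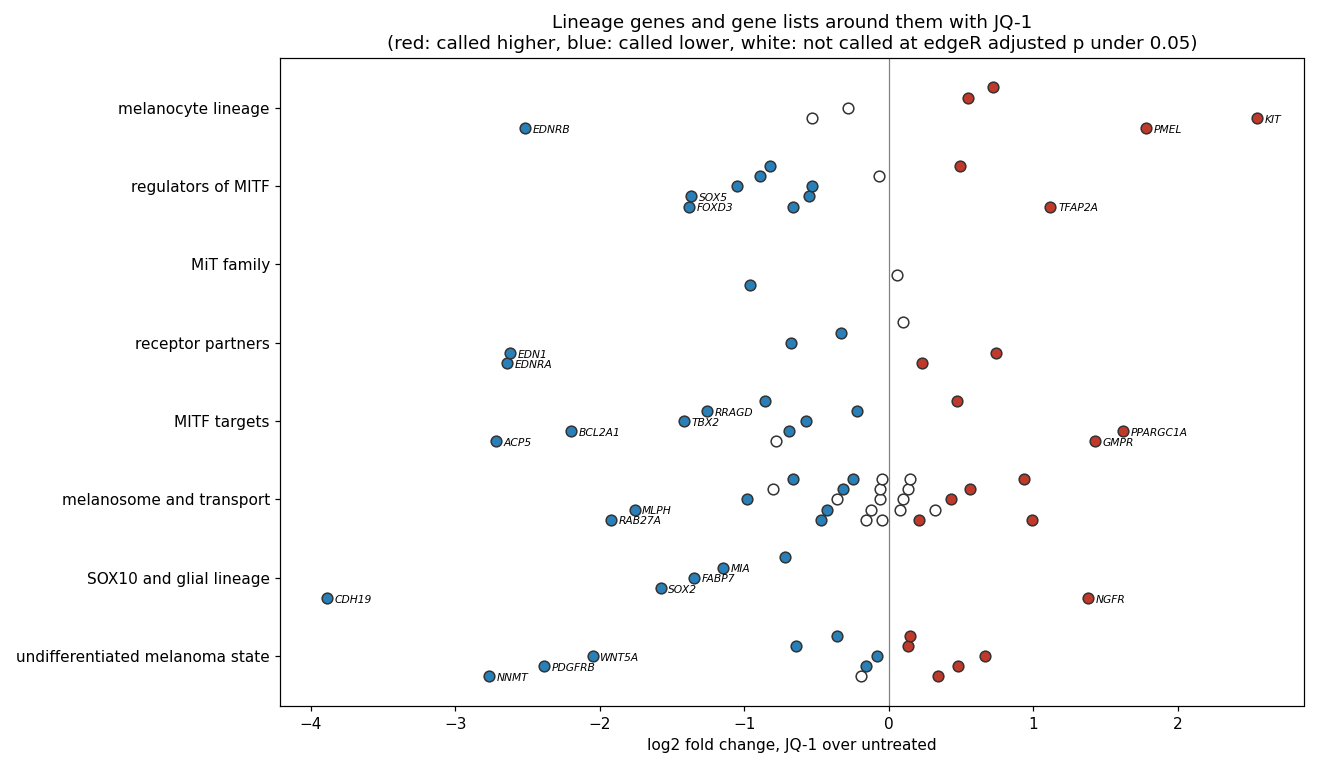
Log2 fold change of the tested genes reported here with JQ-1 over untreated cells, for the melanocyte lineage genes and 7 lists around them. Red points were called higher, blue points lower and white points not called by edgeR, and genes beyond 1.1 on either side are named. *KIT* and *EDNRB* sit at opposite ends of the lineage row, at 2.55 and -2.52.

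With TP-472, none of the 12 MITF targets tested was called, and 5 of 11 regulators of *MITF* fell, where 14.5% of all genes fell and 31.8% were called. Without the GC trend, 2 of the 11 fell (11.9% of all genes called), the calls of *CREB1*, *SOX5* and *ZEB1* being lost at -0.02, -0.58 and -0.13 (edgeR adjusted p = 0.812, 0.0863 and 0.0613). With GSK-591, *MLPH* rose by 0.40 (67.9 CPM with GSK-591 and 51.3 CPM in untreated cells; edgeR adjusted p = 3.95e-07) and *SLC7A11*, the cystine transporter, fell by 0.68. With MS023, 4 of 12 MITF targets fell and 1 rose, where 20.6% of all genes fell and 22% rose. Once the GC trend was removed, 2 fell and 1 rose (16.3% of all genes called), the falls of *BCL2A1* and *RRAGD* being lost and the gene that rose being *ASAH1* in place of *GMPR*. *BCL2*, an anti-apoptotic gene, fell with MS023 by 0.65 (10.9 CPM with MS023 and 16.9 CPM in untreated cells; edgeR adjusted p = 1.45e-06). *NT5E*, a surface enzyme of the undifferentiated state, fell with MS023, to 104 ± 1.21 CPM, against 238 ± 1.43 CPM in untreated cells (SD, n = 3 each; edgeR adjusted p = 1.26e-17). With GSK-484 none of the 12 MITF targets was called, where 11.4% of all genes were higher and 7.66% lower (19.1% in all). *KITLG* fell with GSK-484 by 0.39 (7.24 CPM with GSK-484 and 9.48 CPM in untreated cells), a call that ended at -0.28 with the GC trend removed (edgeR adjusted p = 0.0918). With UNC0642, *WNT5A* fell by 0.30 and *SOX9*, a regulator of *MITF*, by 0.25. *MFSD12*, a lysosomal transporter that affects pigmentation, was called higher with all 5, at 0.24 to 0.62, but without the GC trend it stayed called with GSK-591 (0.14) and MS023 (0.22) alone.

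Most genes of other cell types were at low levels or 0, while *KRT10* and *CD68*, which are not specific to 1 cell type, were expressed above *MITF*. *KRT1* and *DCN* had 0 counts in every library, and *PTPRC* and *CD3E* had at most 3 and 2. The JQ-1 counts of these short lists stand beside 35.7% of all genes higher and 37.6% lower (73.3% in all). Of the keratinocyte list 1 of 2 tested genes fell with JQ-1, and its summed level was 20.7 to 24.4 CPM with JQ-1 and 29.4 to 34.8 CPM in untreated cells, nearly all *KRT10*. Of the fibroblast list 1 rose (*COL1A1*, not called at 0.19 with the GC trend removed; edgeR adjusted p = 0.174) and 1 fell among 3 tested, at 6.17 to 7.25 CPM with JQ-1 and 8.86 to 9.8 CPM in untreated cells. Of the endothelial list both tested genes fell, with sums below 1 CPM in every library. Of the leukocyte list only *CD68*, a lysosomal protein also made by other cells, was tested. It was higher with JQ-1, at 156 CPM with JQ-1 and 136 CPM in untreated cells, and not called with the GC trend removed (log2 0.11, edgeR adjusted p = 0.135). The part of these genes in the lineage values was not tested.

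Over the 21 libraries, the genes whose log2 CPM followed *MITF* most closely, among those with a mean of at least 3 CPM, were *MYEF2* (Pearson r = 0.962), *SPRY3* (0.957) and *RAB3IP* (0.954). For *SOX10* they were *CLPTM1* (0.984), *EEF2* (0.984) and *CYB5R3* (0.978), and for *EDNRB* *TUBGCP3* (0.988), *STC1* (0.985) and *HMGA2* (0.983). *KIT* was most like *CLTCL1* (0.946), *CYB561A3* (0.920) and *CRAT* (0.915). The highest values were lower for *PMEL* (0.799), *MLANA* (0.717) and *TYRP1* (0.705). These correlations describe libraries that share 7 groups, of which JQ-1 stands apart, and carry no test.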

How the data were processed

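The 21 RNA-seq libraries of SK-MEL-147 were put in 7 groups of 3 by their treatment label. The deposited table gives unscaled expected counts per gene, made by the authors with RSEM 1.2.15 and Bowtie2 2.1.0 on build hg38 per the submitters' processing notes. Which annotation, strand setting and filters were used is not given in the sources used here, and RSEM can divide reads between overlapping or similar genes. Of the 10 genes, 9 had whole counts in all 21 libraries and *SOX10* in 17.

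After rounding, genes with low counts were removed (filterByExpr in edgeR 4.0.16, at least 10 counts and a total of 15) and libraries were scaled by TMM. A single fit of the 21 libraries had group as its term. Compounds were tested against untreated cells and, in 15 pairs, against each other, with the two-sided quasi-likelihood test, and over 7 and 6 groups with its F test. A Benjamini-Hochberg adjusted p under 0.05 over 15062 genes was called. The common coefficient of variation was 5.09%. Fold changes use a prior count of 0.125. The fit was also run on simulated counts with the same spread for all genes and no GC trend. That run cannot check the effect of the trend in the untreated libraries.

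The genes and the 11 further lists (MiT family, regulators of MITF, receptor partners, melanosome and transport, MITF targets, SOX10 and glial lineage, undifferentiated state, and keratinocyte, fibroblast, endothelial and leukocyte markers; 107 genes) were chosen with earlier results of these data known. All 10 genes are named. With JQ-1 the rule named, per list, the 3 called genes with the largest change among those at 3 CPM or more without overlap, and with other compounds the 2 largest rises and 2 largest falls. The text gives part of them, 1 gene of the glial list is counted but not reported here, and names outside the rule were picked with their values in view, as the text says, or stand beside a count.

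Alternatives were DESeq2 1.42.0, RLE and total-count scaling, no filter, a replicate block, the 2 groups alone, a reference of the treated groups other than JQ-1 (for JQ-1, the other 5), each replicate left out, and removal of each library's GC trend (loess of log2 CPM, prior count 2, span 0.3, 4 iterations; GC of GENCODE 29 transcripts, known for 93.7% of genes tested). The last with the other treated groups as the reference was added after seeing the data. Computations used R 4.3.3, limma 3.58.1, Python 3.11.15 and matplotlib 3.10.9. No protein sequences were used here.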

Additional observations from a re-analysis of the deposited data

Results flagged for a closer look

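*MITF* is the 1 lineage gene called in opposite directions with different compounds, higher with JQ-1 and lower with GSK-591, MS023 and GSK-484. The direct difference on the log2 scale was 0.94 for JQ-1 minus GSK-591 (18.8 CPM with JQ-1 and 9.77 CPM with GSK-591; edgeR adjusted p = 1.73e-11), 0.89 for JQ-1 minus MS023 (10.1 CPM with MS023; adjusted p = 1.95e-11) and 0.86 for JQ-1 minus GSK-484 (10.4 CPM with GSK-484; adjusted p = 4.55e-11). In each case all 3 JQ-1 libraries were above all 3 libraries of the other compound. These contrasts include the JQ-1 rise and cannot show a fall with the other compound. The falls were called against untreated cells, and with the GC trend removed GSK-484 did not pass (-0.21, edgeR adjusted p = 0.102). Against the other treated groups except JQ-1, GSK-591 was called (-0.19, adjusted p = 0.0378). MS023 (-0.14, adjusted p = 0.0729) and GSK-484 (-0.09, adjusted p = 0.501) were not.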

How the results depend on the processing

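Removing the GC trend left the JQ-1 count at 5 and the counts over the 7 and 6 groups at 4, but left 1 of 2 genes called with TP-472 (*KIT*), GSK-591 and MS023 (*MITF* in both), and 0 with GSK-484 and UNC0642. With the replicate block added to it, TP-472 also fell to 0, while GSK-591 and MS023 stayed at 1 and GSK-484 and UNC0642 at 0. Against the other treated groups, TP-472 gave 1 (*KIT*) and MS023 and GSK-484 gave 0, and with the GC trend removed as well MS023 and GSK-484 again gave 0. In that last fit TP-472 gave 2 (*KIT* and *MITF*). Total-count scaling and no filter each gave 1 for GSK-484 (*MITF*), and no filter gave 1 for TP-472 (*SOX10*) and 2 for UNC0642 (*SOX10* and *DCT*). Fitted alone with untreated cells, GSK-484 gave 0 and UNC0642 gave 2 (*SOX10* and *DCT*). *DCT* entered that fit only through its counts in the UNC0642 libraries, so its call there supports nothing. DESeq2 gave 1 for TP-472 (*SOX10*), with no adjusted p for *KIT*. Silent genes numbered 3 at 20 counts and 2 at 0.25 CPM.

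Leaving out 1 library gave 4 to 5 calls with JQ-1, 1 to 2 with TP-472, 2 to 3 with GSK-591 and with MS023, 1 to 3 with GSK-484 and 1 with UNC0642. Over the 7 groups it gave 4 to 6 genes, and over the 6 treated groups 4 to 5. Behind the unchanged count of 2 with TP-472 without its replicate 1, *MLANA* (-2.18) took the place of *KIT*. *SOX10* with GSK-484 lost its call without untreated replicate 1 or 2 or GSK-484 replicate 2 or 3, at 0.09 to 0.13.

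Among the values of single genes that were followed through the alternatives, directions turned as follows, on the log2 scale. *MITF* turned with TP-472 to 0.02 without the GC trend, 0.01 with the block added, and 0.16 against the other treated groups with or without the trend. The value of 0.16 was called without the trend (edgeR adjusted p = 0.0316) and not with it (adjusted p = 0.0632). With UNC0642 *MITF* turned to 0.06 without the trend with or without the block, 0.27 and 0.23 against the other treated groups, and 0.02 without untreated replicate 1. Both values against the other treated groups were called (edgeR adjusted p = 0.000766 and 0.00173). *SOX10* turned with TP-472 to -0.04 without the trend (with or without the block) and -0.03 against the other treated groups (with or without the trend). With MS023 it turned to -0.05 without the trend (with or without the block) and -0.04 when the other treated groups were also the reference. With GSK-484 it turned to -0.08 without the trend (with or without the block), -0.13 against the other treated groups and -0.09 with both changes. With UNC0642 *SOX10* turned to -0.04 against the other treated groups. *MFSD12* turned with TP-472 to -0.01 without the trend and -0.12 against the other treated groups, with GSK-484 to -0.12 and -0.09, and with UNC0642 to -0.16 and -0.04. *SLC7A11* turned with GSK-484 to 0.05 and 0.01. Of the other values followed in this count, 814 kept direction and call and 81 kept direction but were no longer called. The count does not cover every gene with every compound. Values outside it that were not called also turned. *PMEL* with UNC0642 went from 0.56 to -0.10 against the other treated groups, and *EDNRB* with GSK-591 from -0.01 to 0.15 without the trend. The cause of these changes was not tested.

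The replicate numbers did not pair the libraries: correlations of same-numbered deviations were -0.13 to 0.12, with 1 of 18 over 0.1. The replicate block alone left the counts at 5 with JQ-1, 2 with TP-472, GSK-591, MS023 and GSK-484, and 1 with UNC0642, and gave 5 genes over the 7 groups, *PMEL* being added.

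*TYR*, *GPR143* and *DCT* rest on too few counts for changes short of several-fold to be detectable at this depth, and *PMEL*, *MLANA*, *TYRP1* and *KIT* had at most 42 counts in a library. No dose or time is known for any compound, and 1 cell line was used.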
